A study of Mus musculus with 18 samples.

Results

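The subunit genes of the receptors for GABA and glutamate were followed in the hypothalamus of obese mice given TN-783, of obese mice given vehicle, and of lean mice. They were chosen by gene symbol alone (Gabra, Gabrb, Gabrd, Gabre, Gabrg, Gabrp, Gabrq, Gabbr, Gria, Grik, Grid, Grin and Grm genes), and 44 genes of the 56980 features in the count table carried such a symbol, with 1 feature each. They comprised 16 GABA-A, 2 GABA-B, 4 AMPA, 5 kainate, 2 delta, 7 NMDA and 8 metabotropic glutamate receptor genes. Of the 44 genes, 37 passed the filter on low counts and were tested, among 11835 genes in all.

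All animals were male C57BL/6JGpt mice, and each of the 3 groups held 6 libraries that the labels describe as independent biological samples. Mice of the TN-783 group were made obese by a high-fat diet begun at 6 weeks of age and kept up for at least 16 weeks, and received TN-783, an NLRP3 inhibitor, by oral gavage at 50 mg/kg 2 times a day. The DIO vehicle group (DIO, diet-induced obesity) had the same diet and received the vehicle on the same schedule, and both obese groups had first been accustomed to gavage with vehicle for 14 days, in which the labels do not say whether lean mice took part. The Lean control group ate chow and was not dosed, so diet and gavage cannot be told apart between obese and lean mice. Dosing lasted 29 days according to the labels and 28 days according to the deposited sample table, which also gives an age of 7 months for the mice. RNA was read as 3′ tags with molecular identifiers, so a transcript is counted at its end. Levels are given as CPM (counts scaled to a common library total) and do not grow with gene length. How fully the end of each gene was captured was not tested, so levels compared between genes, classes or subunits are counts of tags. The values are of whole hypothalamus, in which fewer cells of a type and less RNA per cell cannot be told apart.

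GABA is the main inhibitory transmitter of the hypothalamus and glutamate the main excitatory one. GABA-A receptors are pentameric chloride channels, usually of alpha, beta and gamma subunits, in which epsilon and theta subunits can take part, while GABA-B receptors are G protein-coupled dimers of the products of Gabbr1 and Gabbr2. AMPA and kainate receptors are tetrameric cation channels, NMDA receptors combine the obligatory GluN1 subunit with GluN2 or GluN3 subunits, and metabotropic glutamate receptors signal through G proteins. In hypothalamic feeding circuits, AgRP neurons release GABA and themselves receive glutamate input through NMDA receptors.

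Library totals were 1993528 to 3589795 tags for TN-783, 1699712 to 2761474 for DIO vehicle and 2070041 to 3695785 for lean, of which receptor genes made up 0.204 to 0.334%. RNA integrity numbers (RIN) lay between 9.6 and 9.7 for TN-783, 9.5 and 9.9 for DIO vehicle and 9.4 and 10.0 for lean. All 19 hypothalamic marker genes were detected well enough to be tested. Of neighbouring regions, summed cortical and hippocampal markers reached 96.2 CPM in TN-783, 120.3 CPM in DIO vehicle and 104.8 CPM in lean mice. In the same order, summed thalamic markers reached 292.8, 366.4 and 363.5 CPM and striatal ones 130.4, 148.7 and 128.1 CPM. Among cortical and hippocampal markers, median Slc17a7 was 2.88, 6.55 and 2.12 CPM and median Prox1 54.4, 47.0 and 67.8 CPM. Summed pituitary markers reached 3921 CPM in DIO vehicle mice, against at most 101.8 CPM in TN-783 mice and 31.8 CPM in lean mice, and the high values came from DIO vehicle replicates 2 and 4. Lean replicate 6 had the highest RIN of the 18 libraries, 10.0, and the lowest summed receptor level of its group. It was the lowest lean library for 25 of the 37 tested receptor genes, DIO vehicle replicate 2 was the lowest of its group for 19, and TN-783 replicate 4 for 15.

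The receptor classes were counted at very unequal levels, led by GABA-A, AMPA and GABA-B genes in all 3 groups. Together the 44 genes summed to 2589 ± 231 CPM in TN-783 mice, 2568 ± 307 CPM in DIO vehicle mice and 2793 ± 311 CPM in lean mice (SD, n = 6 each). GABA-A genes held 36.1 ± 1.1% of that sum in TN-783 mice, 36.7 ± 1.0% in DIO vehicle mice and 36.5 ± 0.87% in lean mice. AMPA genes held 23.9 ± 0.56% in TN-783 mice, 23.8 ± 0.68% in DIO vehicle mice and 24 ± 1.8% in lean mice. The pair of GABA-B genes held 18.9 ± 1.8% in TN-783 mice, 18.6 ± 1.3% in DIO vehicle mice and 17.5 ± 0.56% in lean mice. Metabotropic genes, at 8.6 ± 0.70% in TN-783 mice, 8.8 ± 1.4% in DIO vehicle mice and 9.2 ± 0.34% in lean mice, and NMDA genes, at 7.1 ± 0.69% in TN-783 mice, 7.0 ± 0.67% in DIO vehicle mice and 7.5 ± 1.1% in lean mice, came next. Kainate genes held about 3%. No test was made of these shares, whose group ranges overlapped in each of these classes.

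**Figure D1:**
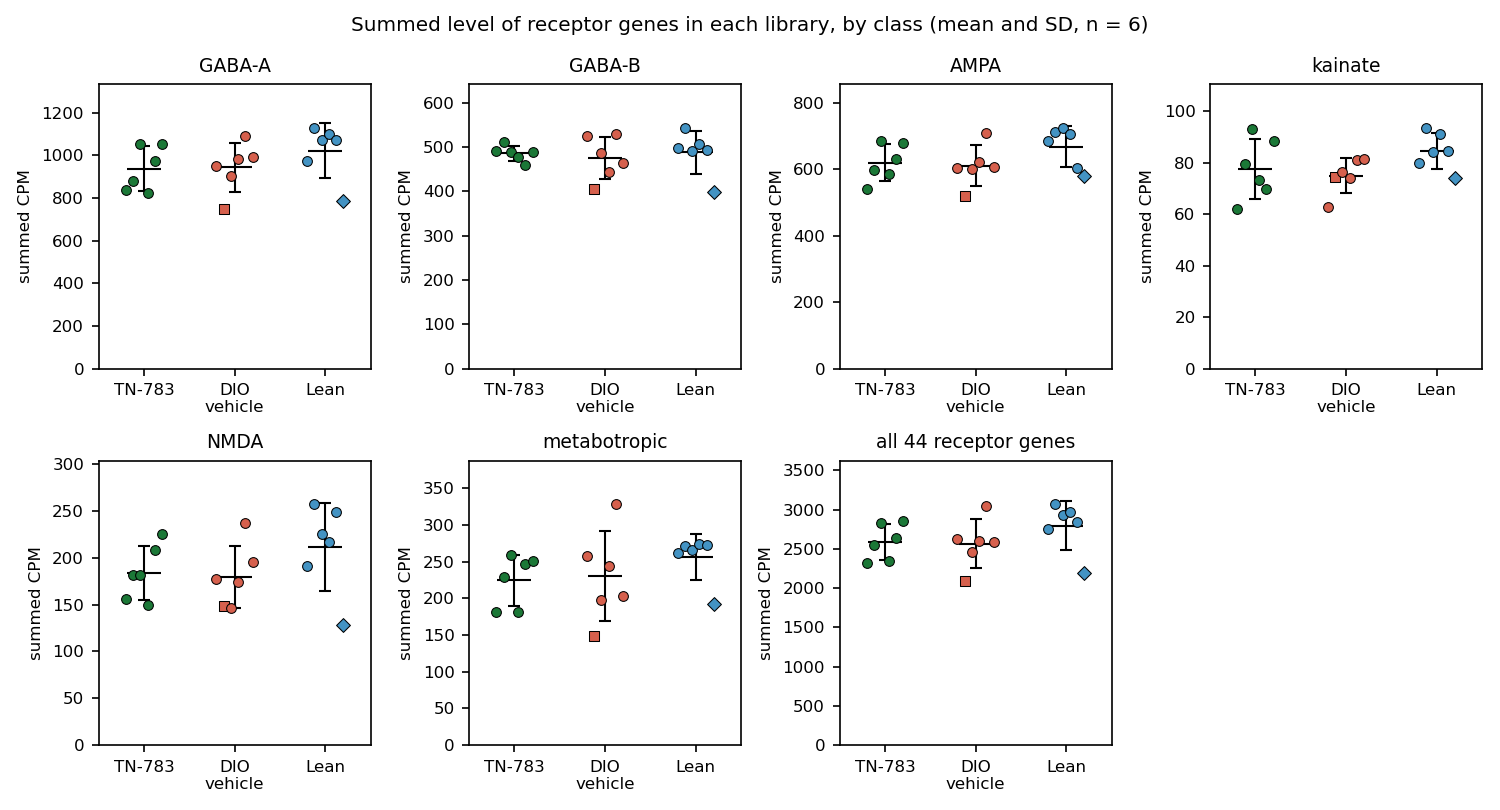
Summed CPM of the genes of 6 receptor classes and of all 44 genes (y axes, from 0) in each of the 18 libraries, with the group mean and SD (n = 6). Diamonds mark lean replicate 6 and squares DIO vehicle replicate 2, and the groups overlap in every panel, with all 44 genes at 2589 CPM in TN-783 mice, 2568 CPM in DIO vehicle mice and 2793 CPM in lean mice on average.

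No receptor gene passed an adjusted p of 0.05 in any comparison, in a single edgeR quasi-likelihood fit of the 3 groups with p-values adjusted by the Benjamini-Hochberg method over 11835 genes. DIO vehicle against lean mice gave 0 of 37 receptor genes, against 0.00845% of all tested genes. TN-783 against DIO vehicle gave 0 of 37 and TN-783 against lean gave 0 of 37, with 0% of all genes called in each. The smallest edgeR adjusted p of a receptor gene was 0.359 for DIO vehicle against lean, 1 for TN-783 against DIO vehicle and 0.611 for TN-783 against lean. At an unadjusted p under 0.05, 4 of 37 receptor genes (10.8%) were reached for DIO vehicle against lean, beside 10.9% of all genes. For TN-783 against DIO vehicle it was 0 of 37, beside 2.61%, and for TN-783 against lean 3 of 37 (8.11%), beside 8.16%. Split by direction, the 4 receptor genes for DIO vehicle against lean were all lower, 10.8% beside 5.55% of all genes, with 0 higher beside 5.32%. For TN-783 against lean, 2 were lower, 5.41% beside 4.35% of all genes, and 1 was higher, 2.7% beside 3.81%. For TN-783 against DIO vehicle, 0 were higher, beside 1.02% of all genes, and 0 lower, beside 1.59%. With limma voom and sample weights, 0 of 37 were called in each comparison, beside 1.23% of all genes for DIO vehicle against lean, 0% for TN-783 against DIO vehicle and 0.0338% for TN-783 against lean. Its unadjusted p was under 0.05 for 12 of 37 receptor genes, beside 21.3% of all genes, for DIO vehicle against lean, for 3 of 37, beside 3.19%, for TN-783 against DIO vehicle and for 9 of 37, beside 17.6%, for TN-783 against lean. DESeq2 called 0 of 37 receptor genes for DIO vehicle against lean, beside 0.177% of all genes. It called 0 for TN-783 against DIO vehicle, beside 0%, and 0 for TN-783 against lean, beside 0.0422%. Its unadjusted p was under 0.05 for 5, 0 and 2 of 37 in these comparisons, beside 1211, 272 and 891 of all 11835 genes. In no comparison did the 6 values of a group all lie above or all lie below those of the other for any receptor gene. Among all genes, 0.161% were wholly higher and 0.228% wholly lower in DIO vehicle than in lean mice, 0.0338% wholly higher and 0.0253% wholly lower in TN-783 than in DIO vehicle mice, and 0.22% wholly higher and 0.186% wholly lower in TN-783 than in lean mice.

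The signs of the differences leaned one way between obese and lean mice. In DIO vehicle against lean, the log2 difference was below 0 for 30 of 37 receptor genes, beside 48.9% of all genes, and the median was -0.17, beside 0.01 over all genes. In TN-783 against lean it was below 0 for 27 of 37, beside 50.9%, with a median of -0.11, beside 0.00 over all genes. In TN-783 against DIO vehicle it was below 0 for 13 of 37, beside 51.3%, with a median of 0.04, beside 0.00. That direction turned under several alternatives, with 20 of 37 below 0 and a median of -0.0066 with RIN as a covariate, 22 of 37 and -0.0077 without DIO vehicle replicate 2, and 20 of 37 and -0.017 without TN-783 replicate 6. Without DIO vehicle replicates 2 and 4, 19 of 37 were below 0, and with voom 7 of 37, with a median of 0.12. Each comparison shares a group of libraries with each of the others, so the 3 sets of signs are not separate observations. These are counts and medians of untested lists, and no gene in them was called.

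**Figure D2:**
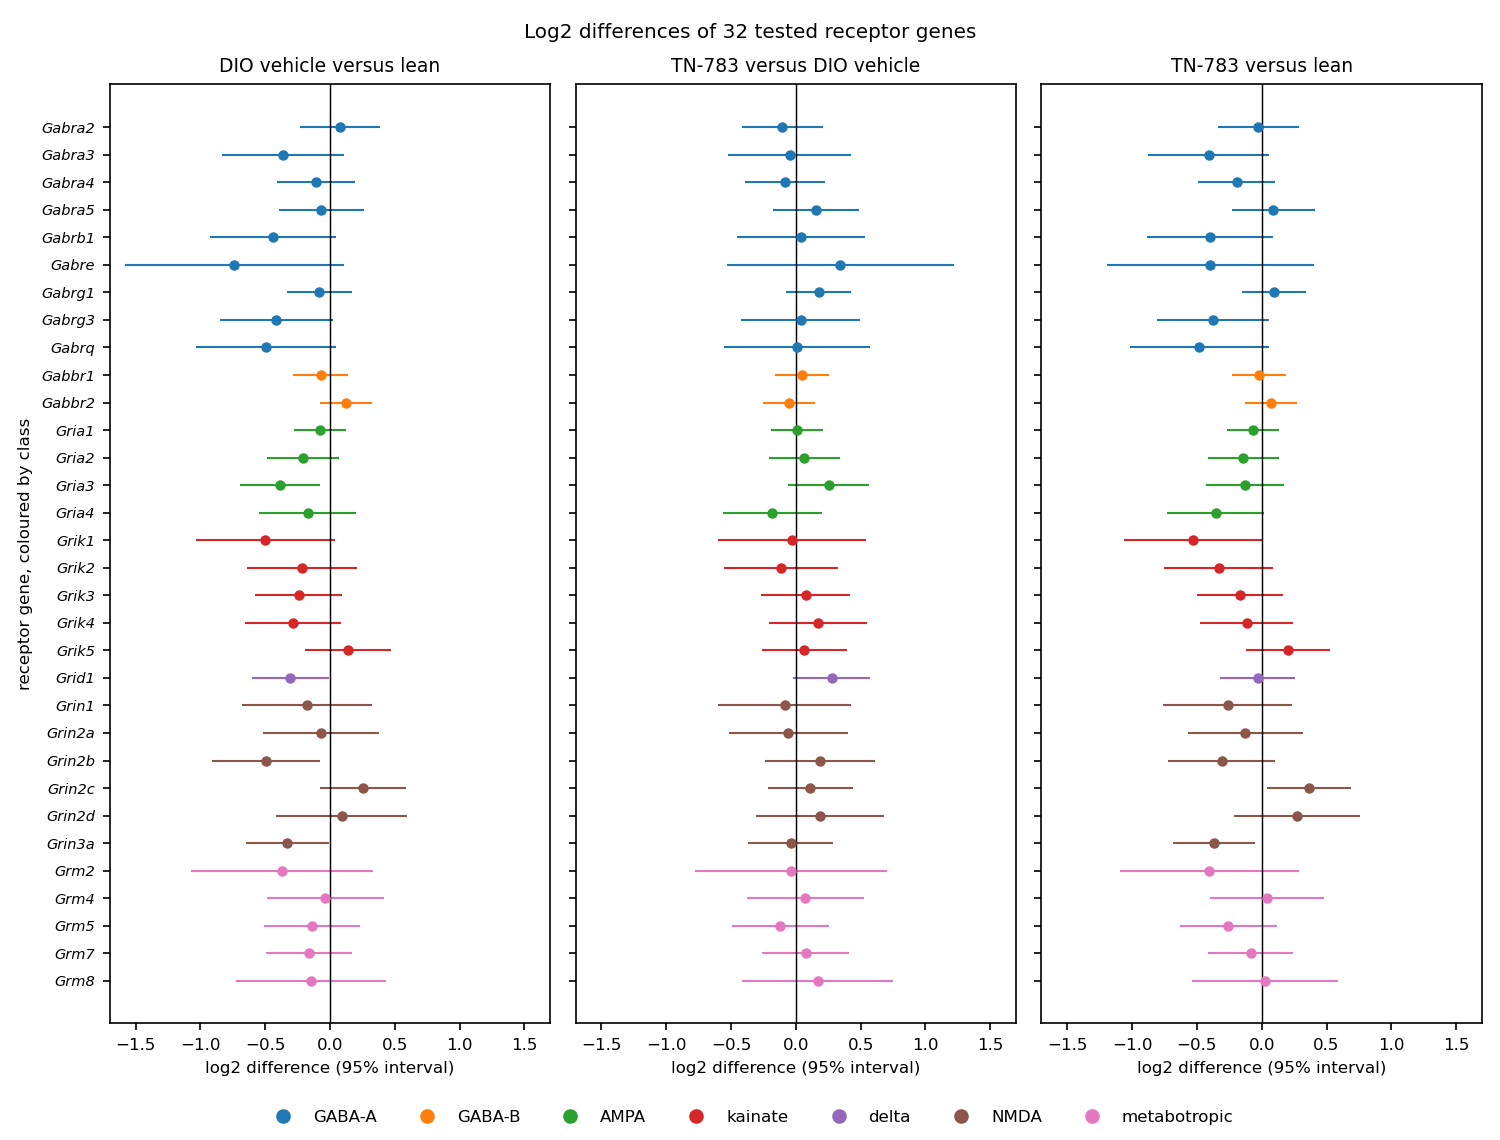
Log2 differences (x axes) of 32 tested receptor genes (rows, coloured by class) in 3 comparisons, with 95% intervals computed from an SE derived from the edgeR test. Points for DIO vehicle against lean lie left of 0 for 27 of the 32 genes, those for TN-783 against DIO vehicle for 12 of 32, and no gene passed an adjusted p of 0.05.

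These values were also taken without lean replicate 6 and with RNA integrity in the fit. Without lean replicate 6, the receptor median for DIO vehicle against lean was -0.25, with 31 of 37 differences below 0 and 0 of 37 receptor genes called by edgeR, beside 2.89% of all genes (346 genes), and for TN-783 against lean 0 of 37 were called, beside 0%. At an unadjusted p under 0.05 there were then 12 of 37 receptor genes (32.4%), beside 21.6% of all genes, likewise 12 of 37 for TN-783 against lean, beside 19.3%, and 1 of 37 for TN-783 against DIO vehicle, beside 3.15%. With RIN as a covariate over all 18 libraries, the median for DIO vehicle against lean was -0.07, with 25 of 37 below 0. At an unadjusted edgeR p under 0.05 there were 0 of 37 receptor genes, beside 767 of all 11835 genes. The median for TN-783 against lean was -0.06 with this covariate, with 23 of 37 below 0. There, 2 of 37 reached an unadjusted edgeR p under 0.05, beside 827 of all 11835 genes. Without TN-783 replicate 1, the median for TN-783 against lean was also -0.06, with 24 of 37 below 0, and without lean replicate 6 it was -0.17, with 28 of 37 below 0. For DIO vehicle against lean, the median was -0.12 without DIO vehicle replicates 2 and 4, with 26 of 37 below 0, and -0.26 without DIO vehicle replicate 5. Markers of the tissue and of cell types are set beside them. The log2 difference of hypothalamic markers was below 0 for 13 of 19 genes for DIO vehicle against lean (median -0.34) and for 14 of 19 for TN-783 against lean (median -0.18), medians farther from 0 than those of the receptor genes. The hypothalamic list includes feeding peptide genes. Median Agrp was 3.53 CPM in DIO vehicle and 11.4 CPM in lean mice, and median Pmch 177.5 and 111.2 CPM. For DIO vehicle against lean, the log2 difference was below 0 for 7 of 10 neuronal markers (median -0.16) and above 0 for 5 of 6 endothelial markers (median 0.35). It was above 0 for 8 of 8 oligodendrocyte markers (median 0.30) and for 6 of 8 astrocyte markers (median 0.18). It was below 0 for 3 of 4 oligodendrocyte precursor markers (median -0.16) and for 3 of 6 microglial markers (median -0.07). For TN-783 against lean, it was below 0 for 6 of 10 neuronal markers (median -0.10). It was above 0 for 4 of 6 endothelial (median 0.25) and 8 of 8 oligodendrocyte markers (median 0.28). It was below 0 for 2 of 4 oligodendrocyte precursor markers (median 0.04) and for 2 of 6 microglial markers (median 0.04). Summed hypothalamic markers ranged between 508.4 and 881.1 CPM in TN-783 mice, 539.3 and 7569 CPM in DIO vehicle mice and 565.6 and 1029 CPM in lean mice, and in the highest DIO vehicle library Pomc, which the pituitary also expresses, had 6939 CPM. Summed endothelial markers ranged between 174 and 257.9 CPM in TN-783 mice, 167.5 and 282.6 CPM in DIO vehicle mice and 126.7 and 211.8 CPM in lean mice. Summed oligodendrocyte markers ranged between 3572 and 6932 CPM in TN-783 mice, 3136 and 7479 CPM in DIO vehicle mice and 2481 and 6289 CPM in lean mice. Summed neuronal markers ranged between 3959 and 4766 CPM in TN-783 mice, 3924 and 5078 CPM in DIO vehicle mice and 4078 and 4917 CPM in lean mice. The part of these markers, of RIN and of single libraries in the receptor differences was not tested.

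**Figure D3:**
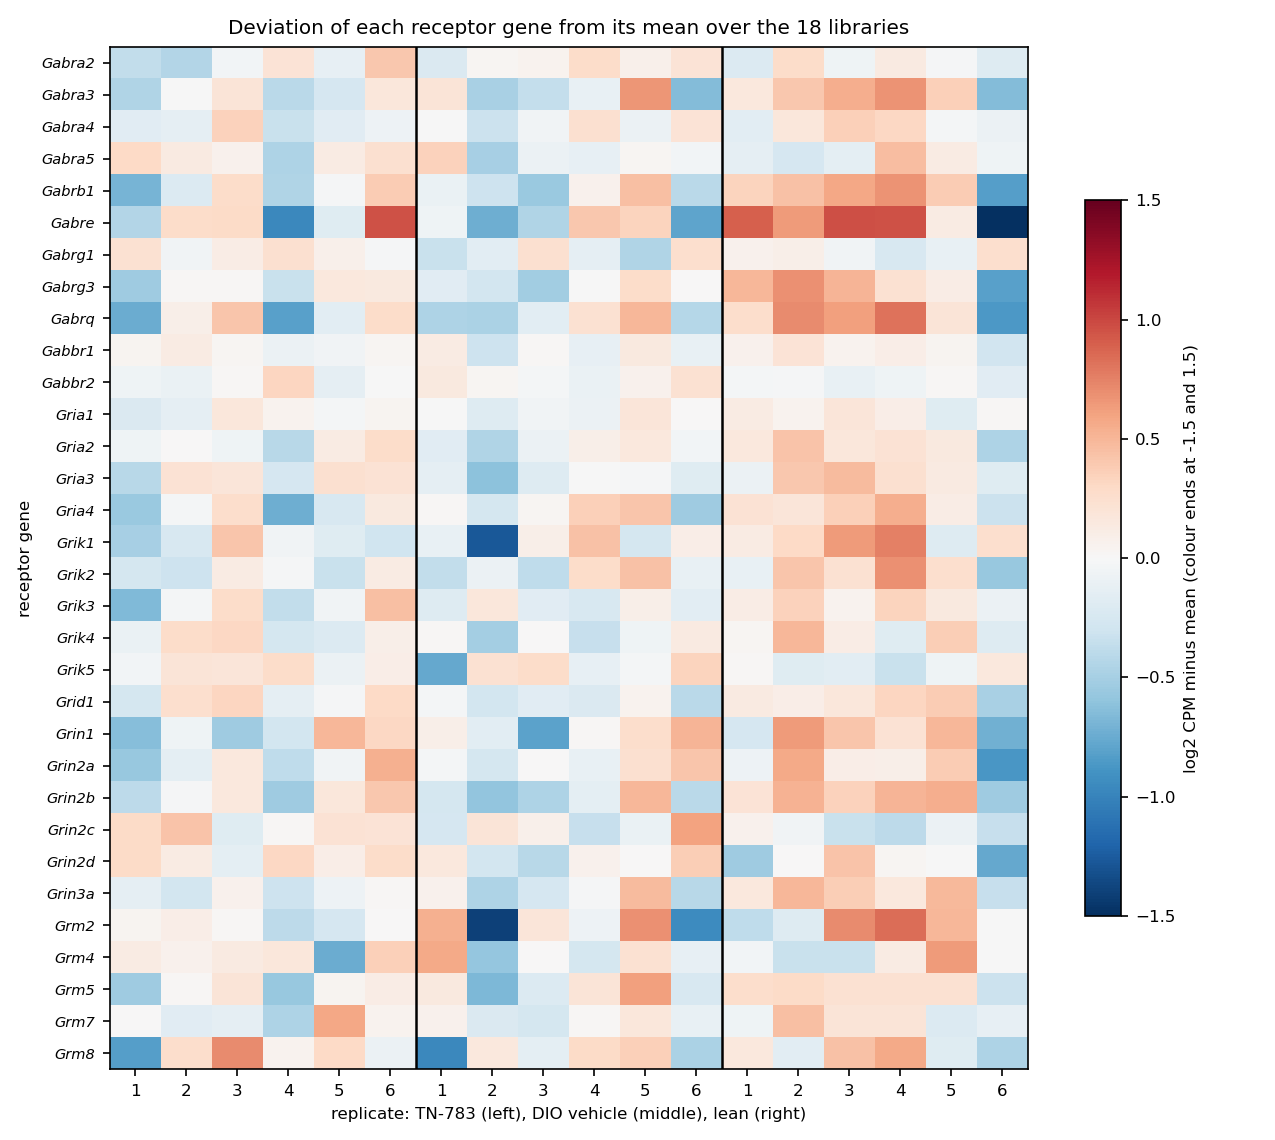
Log2 CPM of 32 tested receptor genes (rows) minus each gene's mean over the 18 libraries (columns, TN-783 left, DIO vehicle middle, lean right), in colour. Lean replicate 6 is blue in most rows, being the lowest lean library for 21 of these 32 genes, while lean replicates 2 to 4 and DIO vehicle replicate 5 are red in many.

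Among the GABA-A beta and gamma subunit genes, Gabrb1 averaged 134 ± 38 CPM in TN-783 mice, 131 ± 35 CPM in DIO vehicle mice and 177 ± 51 CPM in lean mice (SD, n = 6 each), and 5 of the 6 lean libraries lay between 177.7 and 224.1 CPM while lean replicate 6 had 78.6 CPM. Its log2 difference came to -0.44 (SE 0.23, edgeR adjusted p = 0.481) for DIO vehicle against lean. Gabrg1 averaged 127 ± 11 CPM in TN-783 mice, 113 ± 23 CPM in DIO vehicle mice and 119 ± 14 CPM in lean mice, and all 6 TN-783 libraries lay above the DIO vehicle median, with a log2 difference of 0.17 (SE 0.12, edgeR adjusted p = 1).

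Gabrg3, a minor gamma subunit gene, had the smallest p among GABA-A genes for DIO vehicle against lean. It had a low, median and high of 8.36, 12.5 and 14.0 CPM in TN-783 mice, 8.47, 11.7 and 15.3 CPM in DIO vehicle mice and 6.77, 16.3 and 20.6 CPM in lean mice. All 6 libraries of both obese groups lay below the lean median, and the lowest lean value, again replicate 6, lay below them all. The log2 difference came to -0.41 (SE 0.21, edgeR adjusted p = 0.467) for DIO vehicle against lean and -0.38 (SE 0.20, edgeR adjusted p = 0.627) for TN-783 against lean.

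Gabre, Gabra3 and Gabrq are neighbours on chromosome X. They encode the epsilon, alpha3 and theta subunits, which in rodents are prominent in hypothalamic and brainstem neurons. In each of the 6 obese-against-lean differences of these neighbours the value was below 0. So it was for 30 of 37 tested receptor genes in DIO vehicle against lean and 27 of 37 in TN-783 against lean. Both comparisons share the lean libraries, and the sign is not particular to these neighbours. Upstream sequences of Gabre, Gabra3 and Gabrq are shown because the genes had this sign in common. They are the 250 bases before the RefSeq start site in build GRCm38.p6, 5′ to 3′ on the gene's strand, at chrX:72274722-72274971 (minus strand), chrX:72656920-72657169 (minus strand, the start farthest upstream of 2) and chrX:72824928-72825177 (plus strand). Capitals mark GC boxes (GGGCGG or its reverse complement), the TATA box (TATAAA or its reverse complement) and the NRF1 motif (GCGC, any 2 bases, GCGC).
Gabre: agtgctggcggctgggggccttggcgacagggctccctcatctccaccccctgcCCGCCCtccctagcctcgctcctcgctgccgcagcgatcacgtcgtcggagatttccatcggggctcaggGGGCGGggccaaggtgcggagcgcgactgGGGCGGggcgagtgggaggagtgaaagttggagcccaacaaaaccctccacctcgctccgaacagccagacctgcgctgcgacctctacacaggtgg
Gabra3: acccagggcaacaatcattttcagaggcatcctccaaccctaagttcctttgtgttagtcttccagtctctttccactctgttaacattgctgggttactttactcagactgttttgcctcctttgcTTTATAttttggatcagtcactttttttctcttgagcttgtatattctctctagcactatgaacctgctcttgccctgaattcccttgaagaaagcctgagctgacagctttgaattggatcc
Gabrq: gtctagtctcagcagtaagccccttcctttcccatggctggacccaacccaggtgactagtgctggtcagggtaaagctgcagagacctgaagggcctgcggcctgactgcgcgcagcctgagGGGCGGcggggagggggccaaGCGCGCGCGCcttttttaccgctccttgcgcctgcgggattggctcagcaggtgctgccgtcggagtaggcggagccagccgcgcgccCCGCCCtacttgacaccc
Gabre held 3 GC boxes and 21 CG dinucleotides in these bases, Gabrq 2 GC boxes, 1 NRF1 motif and 19 CG dinucleotides, and Gabra3 1 TATA box on the opposite strand and 0 CG dinucleotides. Over windows of 250 bases before to 50 after the start, RefSeq gave 36 windows for 29 of the 44 receptor genes. A GC box on either strand was found in 50.0% of the receptor windows, against 35.7% of 32851 windows of all genes. A TATA box was found in 11.1% against 13.6%, the NRF1 motif in 13.9% against 6.23%, the CRE core TGACG, which also lies within the full CRE, in 11.1% against 20.8% and the full CRE TGACGTCA in 0% against 1.79%. The median GC content was 60.8% in receptor windows and 52.7% in all windows. These matches are letters in a window and were not related to the expression values.

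Gabre had a low, median and high of 4.86, 10.8 and 20.8 CPM in TN-783 mice, 5.56, 8.61 and 13.8 CPM in DIO vehicle mice and 1.56, 18.2 and 21.1 CPM in lean mice. The lean group was spread widest, and lean replicate 6 had the lowest value of all 18 libraries. Its log2 difference came to -0.74 (SE 0.40, edgeR adjusted p = 0.496) for DIO vehicle against lean. Gabra3 had a low, median and high of 98.1, 123.5 and 153.5 CPM in TN-783 mice, 85.7, 114.9 and 213.0 CPM in DIO vehicle mice and 85.4, 175.9 and 215.9 CPM in lean mice, with log2 differences of -0.36 (SE 0.22) for DIO vehicle against lean and -0.41 (SE 0.22) for TN-783 against lean. Gabrq had a low, median and high of 10.8, 19.2 and 26.4 CPM in TN-783 mice, 13.7, 15.9 and 28.0 CPM in DIO vehicle mice and 10.4, 27.0 and 35.0 CPM in lean mice. All 6 TN-783 libraries lay below the lean median for Gabra3 and for Gabrq, while the ranges of the groups overlapped. The Gabrq log2 difference came to -0.49 (SE 0.25, edgeR adjusted p = 0.476) for DIO vehicle against lean and -0.48 (SE 0.25, edgeR adjusted p = 0.63) for TN-783 against lean. Between TN-783 and DIO vehicle mice the log2 differences were 0.34 (SE 0.41) for Gabre, -0.05 (SE 0.22) for Gabra3 and 0.01 (SE 0.26) for Gabrq.

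**Figure D4:**
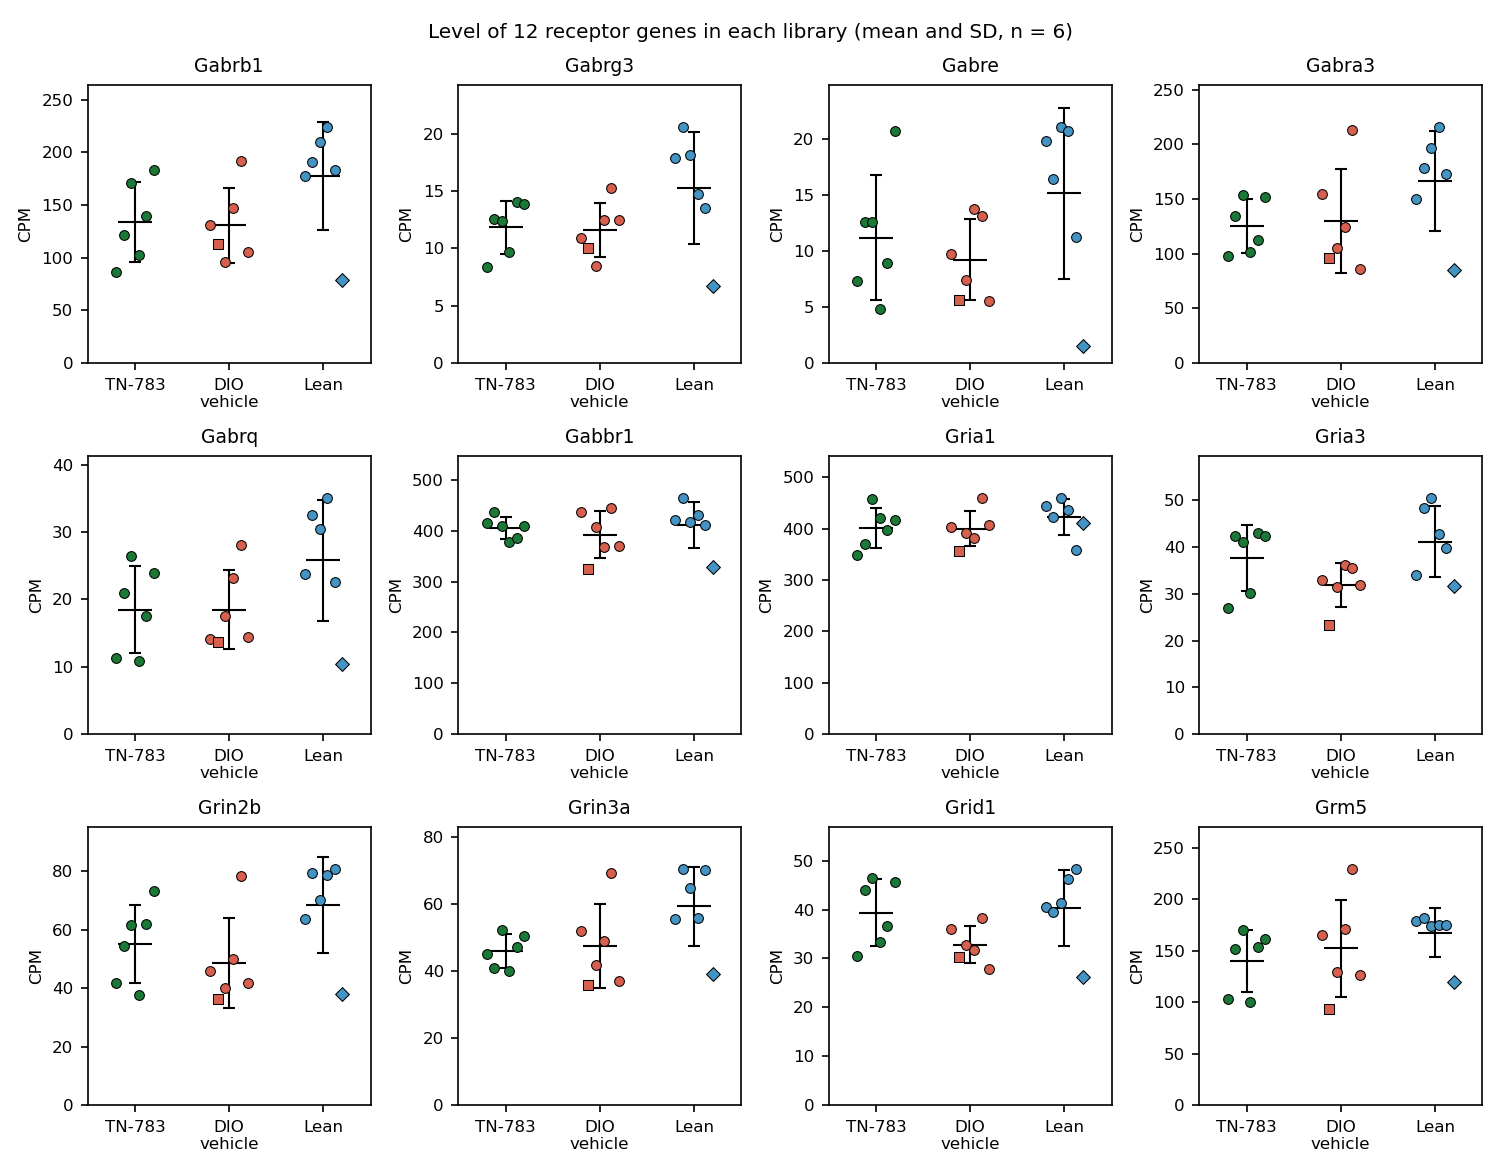
CPM (y axes, from 0) of 12 receptor genes in each of the 18 libraries, with the group mean and SD (n = 6). Diamonds mark lean replicate 6, which lies below the other 5 lean libraries for Gabrb1, Gabre, Gabra3, Gabrq, Gabrg3, Gabbr1, Gria3, Grin2b, Grin3a, Grid1 and Grm5, and squares mark DIO vehicle replicate 2.

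The GABA-B receptor genes were both abundant and varied little. Gabbr1, which encodes the GABA-binding subunit, had a low, median and high of 377.2, 408.6 and 437.7 CPM in TN-783 mice, 324.6, 388.8 and 445.1 CPM in DIO vehicle mice and 327.9, 418.6 and 464.5 CPM in lean mice. Gabbr2, whose product couples to the G protein, had a low, median and high of 72.7, 78.0 and 100.3 CPM in TN-783 mice, 74.8, 82.8 and 93.5 CPM in DIO vehicle mice and 70.7, 77.5 and 80.8 CPM in lean mice. For both genes the ranges of the 3 groups overlapped. The Gabbr2 log2 difference came to 0.12 (SE 0.09, edgeR adjusted p = 0.619) for DIO vehicle against lean, -0.05 (SE 0.09) for TN-783 against DIO vehicle and 0.07 (SE 0.09) for TN-783 against lean. Gabbr1 made up 83.4 ± 2.3% of the GABA-B CPM in TN-783 mice, 82.3 ± 1.9% in DIO vehicle mice and 84.2 ± 1.2% in lean mice.

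Among AMPA receptor genes, Gria1 was the most abundant and Gria3 had the smallest p of all receptor genes for DIO vehicle against lean. Gria1 had a low, median and high of 348.8, 407.3 and 457.2 CPM in TN-783 mice, 356.6, 398.0 and 459.9 CPM in DIO vehicle mice and 359.0, 429.2 and 459.9 CPM in lean mice, and made up 65.0 ± 4.0% of the AMPA CPM in TN-783 mice, 65.7 ± 2.5% in DIO vehicle mice and 63.4 ± 4.3% in lean mice. Gria2, whose edited product makes AMPA receptors impermeable to calcium, made up 23.6 ± 3.1% in TN-783 mice, 22.8 ± 1.5% in DIO vehicle mice and 24.01 ± 3.4% in lean mice. Gria3 had a low, median and high of 27.1, 41.7 and 43.0 CPM in TN-783 mice, 23.3, 32.5 and 36.1 CPM in DIO vehicle mice and 31.8, 41.3 and 50.5 CPM in lean mice. All 6 DIO vehicle libraries lay below the lean median, but 2 lean libraries lay within the DIO vehicle range. The log2 difference of Gria3 was -0.38 (SE 0.14, edgeR adjusted p = 0.359) for DIO vehicle against lean and 0.25 (SE 0.15, edgeR adjusted p = 1) for TN-783 against DIO vehicle. Gria4 averaged 33.6 ± 9.0 CPM in TN-783 mice, 38.4 ± 9.5 CPM in DIO vehicle mice and 43.2 ± 8.4 CPM in lean mice (SD, n = 6 each), and had the smallest p of its class for TN-783 against lean, with a log2 difference of -0.36 (SE 0.18, edgeR adjusted p = 0.616).

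Kainate receptor genes were lower in abundance. Grik3, the most abundant, averaged 23.6 ± 6.8 CPM in TN-783 mice, 22.6 ± 2.9 CPM in DIO vehicle mice and 26.8 ± 3.1 CPM in lean mice. Grik5, a high-affinity subunit gene, averaged 22.05 ± 2.2 CPM in TN-783 mice, 20.8 ± 5.3 CPM in DIO vehicle mice and 19.1 ± 2.5 CPM in lean mice. Grik1 had a low, median and high of 4.92, 6.27 and 10.0 CPM in TN-783 mice, 2.55, 7.36 and 10.2 CPM in DIO vehicle mice and 6.33, 9.06 and 13.0 CPM in lean mice. In both obese groups 5 of 6 libraries lay below the lean median, and the ranges overlapped. The Grik1 log2 difference came to -0.53 (SE 0.25, edgeR adjusted p = 0.611) for TN-783 against lean and -0.50 (SE 0.25, edgeR adjusted p = 0.469) for DIO vehicle against lean. Grik4, a further high-affinity subunit gene, had the smallest p of its class for TN-783 against DIO vehicle, with a log2 difference of 0.17 (SE 0.18, edgeR adjusted p = 1).

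The delta receptor gene Grid1 had a low, median and high of 30.5, 40.2 and 46.4 CPM in TN-783 mice, 27.9, 32.2 and 38.2 CPM in DIO vehicle mice and 26.1, 41.0 and 48.3 CPM in lean mice. All 6 DIO vehicle libraries lay below the lean median, and 5 of 6 TN-783 libraries lay above the DIO vehicle median. The log2 difference came to -0.31 (SE 0.14, edgeR adjusted p = 0.438) for DIO vehicle against lean, 0.28 (SE 0.14, edgeR adjusted p = 1) for TN-783 against DIO vehicle and -0.03 (SE 0.14) for TN-783 against lean.

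Among NMDA receptor genes, Grin2b was the most abundant and had the smallest p of its class for DIO vehicle against lean. Grin2b had a low, median and high of 37.6, 58.0 and 73.2 CPM in TN-783 mice, 36.3, 43.7 and 78.4 CPM in DIO vehicle mice and 38.0, 74.5 and 80.8 CPM in lean mice. Lean replicate 6 lay at 38.0 CPM and DIO vehicle replicate 5 at 78.4 CPM, so the ranges of DIO vehicle and lean mice overlapped. The log2 difference came to -0.50 (SE 0.20, edgeR adjusted p = 0.389) for DIO vehicle against lean and -0.31 (SE 0.19, edgeR adjusted p = 0.637) for TN-783 against lean. Without lean replicate 6 it was -0.61 (SE 0.17, edgeR adjusted p = 0.0513) for DIO vehicle against lean. Without any filter on low counts it was -0.51 (SE 0.13, edgeR adjusted p = 0.0335), the 1 receptor call under any alternative. That unfiltered fit called 1 of 44 receptor genes (2.27%), beside 0.338% of all 37272 genes in it. Grin3a had a low, median and high of 39.9, 46.1 and 52.2 CPM in TN-783 mice, 35.7, 45.3 and 69.2 CPM in DIO vehicle mice and 39.0, 60.3 and 70.4 CPM in lean mice. All 6 TN-783 libraries lay below the lean median, and only lean replicate 6 lay below the highest TN-783 value. The log2 difference of Grin3a was -0.37 (SE 0.15, edgeR adjusted p = 0.611) for TN-783 against lean and -0.33 (SE 0.15, edgeR adjusted p = 0.439) for DIO vehicle against lean. Grin1, the gene of the obligatory subunit, averaged 34.1 ± 11.2 CPM in TN-783 mice, 36.6 ± 10.5 CPM in DIO vehicle mice and 41.2 ± 13.2 CPM in lean mice.

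The mean makeup of the GluN2 subunits, which was not tested, was less weighted to Grin2b in both obese groups than in lean mice. Grin2b made up 52.6 ± 5.1% of the GluN2 CPM in TN-783 mice, 50.5 ± 8.6% in DIO vehicle mice and 61.2 ± 3.3% in lean mice (SD, n = 6 each), with single libraries between 46.6 and 58.8% for TN-783, 39.0 and 62.8% for DIO vehicle and 56.2 and 66.1% for lean, so that the groups overlapped. Grin2c, which in other brain regions is found in astrocytes and cerebellar granule cells, made up 26.7 ± 5.3% in TN-783 mice, 26.8 ± 7.1% in DIO vehicle mice and 19.6 ± 4.7% in lean mice. All 6 TN-783 libraries had more Grin2c than the lean median of 20.7 CPM, and the ranges of 21.2 to 32.4 CPM in TN-783 mice and 18.2 to 25.1 CPM in lean mice overlapped. Its log2 difference came to 0.36 (SE 0.15, edgeR adjusted p = 0.611) for TN-783 against lean and 0.25 (SE 0.16, edgeR adjusted p = 0.544) for DIO vehicle against lean. Astrocyte markers, given above, had log2 differences above 0 for 6 of 8 genes in the same comparison with lean mice for TN-783 as well (median 0.17), and their part in the Grin2c level was not tested.

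**Figure D5:**
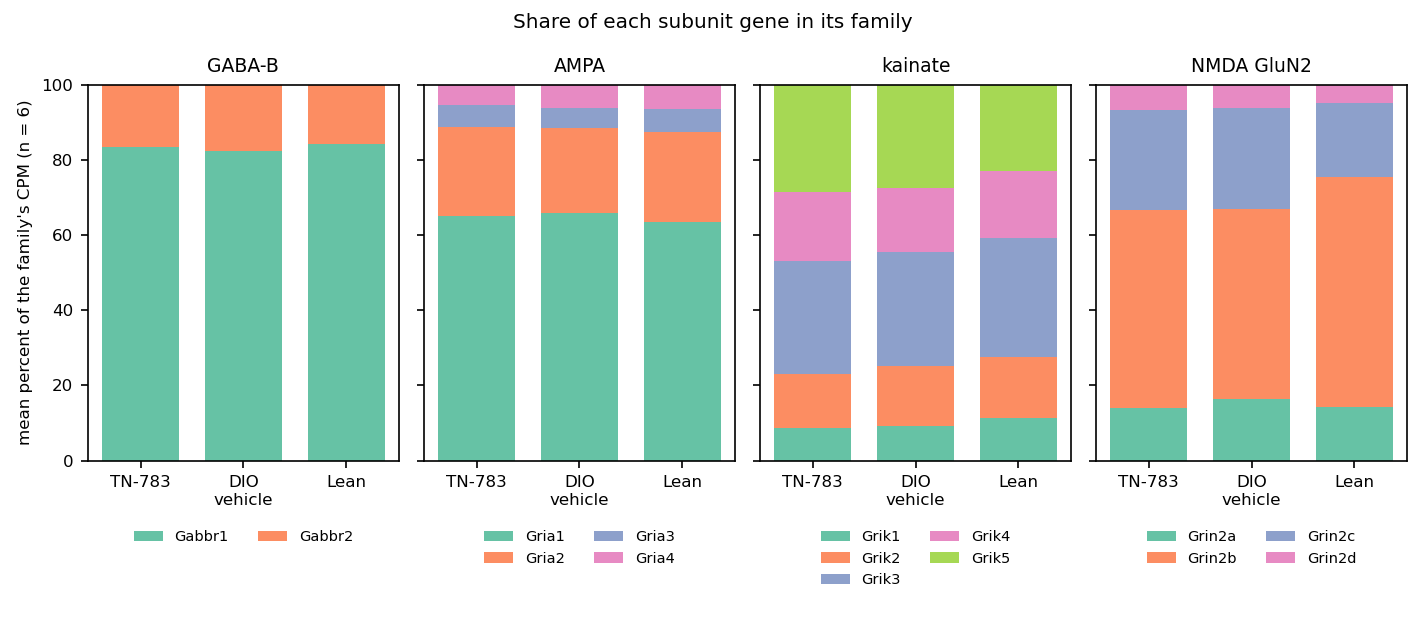
Mean share (percent of the family's CPM, y axis, 0 to 100; n = 6 libraries) of each subunit gene in 4 receptor families in TN-783, DIO vehicle and lean mice. Grin2b holds 52.6% of the GluN2 family in TN-783 mice, 50.5% in DIO vehicle mice and 61.2% in lean mice, while Gria1 holds 63.4 to 65.7% of the AMPA family in the 3 groups.

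Grm5, whose product couples to phospholipase C, was the most abundant metabotropic glutamate receptor gene. It had a low, median and high of 100.4, 152.4 and 170.4 CPM in TN-783 mice, 93.6, 147.4 and 229.6 CPM in DIO vehicle mice and 119.7, 174.8 and 182.0 CPM in lean mice. All 6 TN-783 libraries lay below the lean median, 5 lean libraries lay within 174.5 to 182.0 CPM, and lean replicate 6 lay at 119.7 CPM. The log2 difference of Grm5 was -0.26 (SE 0.18, edgeR adjusted p = 0.650) for TN-783 against lean. The inhibitory group III genes Grm4, Grm7 and Grm8 had means of 16.9, 25.8 and 7.55 CPM in TN-783 mice, 16.5, 24.7 and 6.46 CPM in DIO vehicle mice and 16.8, 27.3 and 7.33 CPM in lean mice.

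Other tested genes showed no call either and were of low to moderate level. Grik2 averaged 11.2 ± 1.8 CPM in TN-783 mice, 12.1 ± 3.0 CPM in DIO vehicle mice and 13.9 ± 4.1 CPM in lean mice, and Gabra4 averaged 22.7 ± 4.1 CPM in TN-783 mice, 24.1 ± 3.6 CPM in DIO vehicle mice and 25.9 ± 4.0 CPM in lean mice. Grin2a, a GluN2 gene of mature synapses, averaged 14.7 ± 4.4 CPM in TN-783 mice, 15.7 ± 3.0 CPM in DIO vehicle mice and 16.1 ± 5.1 CPM in lean mice. Grin2d averaged 6.74 ± 0.87 CPM in TN-783 mice, 5.97 ± 1.3 CPM in DIO vehicle mice and 5.49 ± 1.8 CPM in lean mice. Grm2, an inhibitory group II gene, averaged 4.93 ± 0.75 CPM in TN-783 mice, 5.27 ± 3.0 CPM in DIO vehicle mice and 6.72 ± 2.6 CPM in lean mice, with the widest spread in DIO vehicle mice. None of these genes passed the test in any comparison.

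The 7 receptor genes that did not pass the filter were counted as follows over the 18 libraries. Gabrb2 gave 96 tags, Grm3 30, Gabrd 22, Grm6 12, Grin3b 7, Gabrp 6 and Gabra6 2. Of the 22 Gabrd tags, 2 came from TN-783 mice, 16 from DIO vehicle mice and 4 from lean mice, too few for the filter. The Gabrd product forms extrasynaptic receptors, and Grm6 is known from retinal bipolar cells.

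Genes that make, move or anchor these transmitters and receptors were examined as companion lists. By edgeR, 0 of their tested genes were called in any comparison. Of all tested genes, 0.00845% were called for DIO vehicle against lean and 0% in each comparison with TN-783. Below 0 lay 48.9% of all genes in DIO vehicle against lean, 51.3% in TN-783 against DIO vehicle and 50.9% in TN-783 against lean. For GABA synthesis and transport, with 8 of 10 genes tested, the log2 difference was below 0 for 5 genes in DIO vehicle against lean (median -0.09), for 0 in TN-783 against DIO vehicle (median 0.12) and for 3 in TN-783 against lean (median 0.10). Gad1, a GABA-synthesizing enzyme, had a median of 141.3 CPM in TN-783 mice, 123.7 CPM in DIO vehicle mice and 134.4 CPM in lean mice, and its log2 difference for TN-783 against DIO vehicle was 0.25 (SE 0.13, edgeR adjusted p = 1). Slc38a1, a glutamine carrier, ranged between 81.7 and 129.8 CPM in DIO vehicle mice and between 105.7 and 165.7 CPM in lean mice, with a log2 difference of -0.48 (SE 0.13, edgeR adjusted p = 0.255). For glutamate synthesis and transport, with 10 of 12 tested, the log2 difference was below 0 for 5 genes in DIO vehicle against lean (median -0.01), for 4 in TN-783 against DIO vehicle (median 0.04) and for 6 in TN-783 against lean (median -0.11), and Slc1a3, an astrocyte glutamate transporter gene, had a log2 difference of 0.26 (SE 0.11, edgeR adjusted p = 0.611) for TN-783 against lean.

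Of 18 scaffold and partner genes of GABA receptors, all tested, 14 were below 0 in DIO vehicle against lean (median -0.12), 6 in TN-783 against DIO vehicle (median 0.05) and 13 in TN-783 against lean (median -0.11). The shares of all genes below 0 in these comparisons were 48.9%, 51.3% and 50.9%. Shisa7, an auxiliary GABA-A subunit gene, had a low, median and high of 7.41, 10.3 and 20.1 CPM in DIO vehicle mice and 8.33, 18.8 and 24.1 CPM in lean mice, with a log2 difference of -0.60 (SE 0.22, edgeR adjusted p = 0.358). Trak1, whose product carries mitochondria and binds GABA-A receptors, had a low, median and high of 97.6, 109.7 and 139.7 CPM in TN-783 mice and 75.1, 83.2 and 92.1 CPM in lean mice, so that the groups did not overlap. Such separation was found for 0.22% of all genes on the higher side, and its log2 difference came to 0.42 (SE 0.10, edgeR adjusted p = 0.406). Of 36 tested scaffold and partner genes of glutamate receptors, 20 were below 0 in DIO vehicle against lean (median -0.05), 16 in TN-783 against DIO vehicle (median 0.02) and 19 in TN-783 against lean (median -0.01). Homer1, a postsynaptic scaffold gene, had a log2 difference of 0.36 (SE 0.12, edgeR adjusted p = 0.318) for DIO vehicle against lean. A last list, outside the symbol rule, held glycine receptor and Gabrr genes and also Grina, Grid2ip and Gprasp1. Of its 6 tested genes, 4 were below 0 in DIO vehicle against lean (median -0.20) and 3 in TN-783 against DIO vehicle (median 0.00). In TN-783 against lean, 5 were below 0 (median -0.21). Glra3, a glycine receptor gene, had a log2 difference of -0.40 (SE 0.15, edgeR adjusted p = 0.369) for DIO vehicle against lean.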

How the data were processed

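Hypothalamus RNA of 18 mice was read as 3′ tags with molecular identifiers (labels' protocols). Salmon 1.10.1, STAR 2.7.9a, R 4.5.1, edgeR 4.6.2 and build GRCm39 stand in the submitters' processing notes without roles; how identifiers were collapsed, the strand setting and the annotation are not given in the sources used here. Without the strand setting, tags of overlapping antisense genes cannot be told apart. Deposited by the authors were estimated counts of 56980 features (12% of values not whole), log2 CPM values, a scaling ratio per library and RIN, a score per sample; the log2 CPM were recomputed from the counts and ratios to within 8.88e-15 and not used further. Other deposited columns were gene identifiers.

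Estimated counts were rounded to whole numbers and tested with edgeR 4.0.16 (quasi-likelihood, robust, TMM scaling, filterByExpr with a minimum count of 10) in R 4.3.3, in place of a test on raw counts, in 1 fit of the 3 groups with 15 residual degrees of freedom and Benjamini-Hochberg adjustment at 0.05 over 11835 genes. CPM used the TMM-scaled totals. SE is the absolute log2 difference over the square root of the edgeR F statistic. The 95% intervals use this SE and a t value at 15 degrees of freedom, so an interval and its edgeR p can disagree. For TN-783 against lean, 35 of 37 receptor intervals included 0, while 3 of 37 genes had an unadjusted edgeR p under 0.05. DESeq2 1.42.0, limma 3.58.1 (voom), other scalings and filters, RIN as a covariate and omission of libraries were alternatives. The test was also run on simulated data, whose outcome is not given here and is not used as support. Tables and figures used Python 3.11.15 and matplotlib 3.10.9. No pair of libraries of a group agreed within counting noise (smallest chi-square per degree of freedom 2.31).

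Members and lists were chosen with earlier results of these data known. Some members that were tested, and that the naming rule would include, are not reported here by name or drawn, but are in the counts, sums and medians. Named were, in each class, the most abundant gene and the gene with the smallest p per comparison, and of each companion list the gene with the smallest p per comparison; other members named in the text (Gabra3, Gabrb1, Gabrg1, Gabre and others) were chosen after their values were seen. Promoters are from RefSeq, GRCm38.p6; coordinates in GRCm39 were not used here.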

Additional observations from a re-analysis of the deposited data

Results flagged for a closer look

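In 10 of 135 groups of 6 values examined, 1 library stood apart from the other 5 by a gap past Dixon's critical value. Chance gives about 1 in 20 such groups. The groups are not separate observations, since single genes also enter the class sums, the sum of all 44 genes and the shares. In TN-783 mice, replicate 4 had 100.3 CPM of Gabbr2, against 72.7 to 81.2 CPM in the others, and a Gabbr1 share of the GABA-B CPM of 79.0%, against 83.4 to 85.5%. TN-783 replicate 3 had 30.6 CPM of Gabra4, against 18.9 to 22.6 CPM. In DIO vehicle mice, replicate 2 had 23.3 CPM of Gria3, against 31.5 to 36.1 CPM, and replicate 5 had 78.4 CPM of Grin2b, against 36.3 to 50.0 CPM. In lean mice, all 5 values that stood apart belonged to replicate 6. It had 78.6 CPM of Gabrb1, against 177.7 to 224.1 CPM, and 119.7 CPM of Grm5, against 174.5 to 182.0 CPM. Its summed GABA-B level was 398.6 CPM, against 490.3 to 543.7 CPM, its summed metabotropic level 191.8 CPM, against 261.3 to 273.8 CPM, and the sum of all 44 genes 2197 CPM, against 2757 to 3068 CPM. What sets these libraries apart was not tested.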

How the results depend on the processing

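The count of receptor genes called stayed at 0 in all 3 comparisons under every alternative run except 1. Without a filter on low counts, 1 receptor gene, Grin2b, was called for DIO vehicle against lean. That was 1 of the 44 receptor genes then in the fit (2.27%), beside 0.338% of all 37272 genes. Leaving out each library in turn gave 0 called in each comparison and receptor medians of -0.26 to -0.13 for DIO vehicle against lean, -0.02 to 0.11 for TN-783 against DIO vehicle and -0.17 to -0.06 for TN-783 against lean. Scaling by library totals alone shifted the median of all genes to -0.07 for DIO vehicle against lean and the receptor median to -0.25. Genes near 0 turned in sign, each uncalled. Without the DIO vehicle libraries with pituitary transcripts, Gabbr1 had log2 differences of 0.00886 for DIO vehicle against lean and -0.0315 for TN-783 against DIO vehicle, and Gria1 -0.0472 for the second of these. With RIN as a covariate, Gabbr1 had 0.00241 and Grid1 0.0191 for TN-783 against lean, Gria1 -0.00659 for TN-783 against DIO vehicle and Grm5 0.000512 for DIO vehicle against lean. Over omissions of 1 library each, log2 differences ranged between these bounds: for TN-783 against DIO vehicle, Gabbr1 -0.000668 to 0.0888, Gria1 -0.0339 to 0.0504, Grik3 -0.0652 to 0.176 and Grm5 -0.230 to 0.0378; for TN-783 against lean, Gabbr1 -0.0805 to 0.00882 and Grid1 -0.119 to 0.0307. The causes were not tested.

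Over all genes, DIO vehicle against lean gave 1 call in the fit reported, 126 of 37272 without a filter, 21 by DESeq2 and 146 by voom. It gave 0 with a filter of 1 CPM in 6 libraries, with the compared groups alone or without the libraries with pituitary transcripts. TN-783 against lean gave 0, and 27, 5, 4 and 5 without a filter, by DESeq2, by voom and with the compared groups alone, and 2 with RIN; TN-783 against DIO vehicle gave 0, and 6 without a filter. Leaving out 1 library gave 0 to 346, 0 to 5 and 0 to 0 in these comparisons. With the replicate number as a block, 0 receptor genes were called in each comparison, with medians of -0.18, 0.05 and -0.11. All genes called then numbered 1, 0 and 1. The labels do not say what a replicate number shares. Of 18 same-numbered pairs, 3 correlated above 0.1 (-0.4 to 0.385), and 2 libraries correlated best with their own number. Whether same-numbered libraries shared any handling cannot be settled from these values. Genes not tested rested on 2 to 96 tags over all libraries, and intervals cover the spread between libraries only.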
